A study of Mus musculus with 8 samples.

Results

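The core circadian clock was followed in the liver as 10 genes, Per1, Per2, Per3, Cry1, Cry2, Ciart, Nr1d1, Nr1d2, Arntl and Clock, taken as every probe whose platform gene symbol was one of these names. The array table held 18 such probes among 25697, and 14 of them, standing for 9 of the 10 genes, were above background and entered the test beside 12923 probes and 9146 named genes in all. The brightest probe of a gene stands for it below. Whole liver came from female C57BL/6 mice about 3 weeks old. Of these, 4 were ∆F508 mice, a model of cystic fibrosis (CF) in which the chloride channel CFTR lacks a phenylalanine, and 4 were wild-type (WT) littermates. Both genotypes ate the same enriched diet after weaning at 21 days, were given Colyte, an osmotic laxative of polyethylene glycol and salts, diluted, to drink, and were killed at 23 days. The hour of killing is not given in the labels used here, and nothing in them says how the 4 replicates of a genotype were kept or whether they were killed together. P-values therefore measure the spread between these 8 samples.

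The circadian clock is a transcription feedback loop present in most cells, and in the liver it times metabolism to feeding and rest. The proteins of Arntl (BMAL1) and Clock pair and switch on genes that carry E-boxes, among them the Per, Cry, Ciart and Nr1d genes, whose products then shut the loop down again. PER and CRY proteins and CIART repress the pair directly, while NR1D1 and NR1D2 (REV-ERBα and REV-ERBβ) repress Arntl and other genes through a separate element. Because each gene peaks at its own time of day, the level of any of them in a single sample depends on the hour at which the tissue was taken.

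Levels are log2 expression values, quantile-normalized by the authors, with n = 4 arrays per genotype. A difference is the CF mean less the WT mean, given ± the standard error (SE) from limma, and adjusted p is Benjamini-Hochberg over all 12923 tested probes with a threshold of 0.05. Of the 7 tested repressor genes, 5 were higher in the CF livers (Per1, Per2, Per3, Cry2 and Ciart). Of the others tested, 1 was lower (Nr1d1) and 1 did not pass (Nr1d2). Per3 was above background on 4 CF arrays but only 2 WT arrays, so it met the filter of 4 arrays through CF. Where every array had to be above background, Per3 was not tested and 4 clock genes rose. Both activators, Arntl and Clock, did not pass. Over all 9146 named genes by the same rule, 11.0% rose and 8.79% fell. The median difference was 0.59 over the 9 tested clock genes and 0.02 over all tested genes. In whole liver, fewer cells that express a gene and less of its RNA per cell cannot be told apart.

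**Figure D1:**
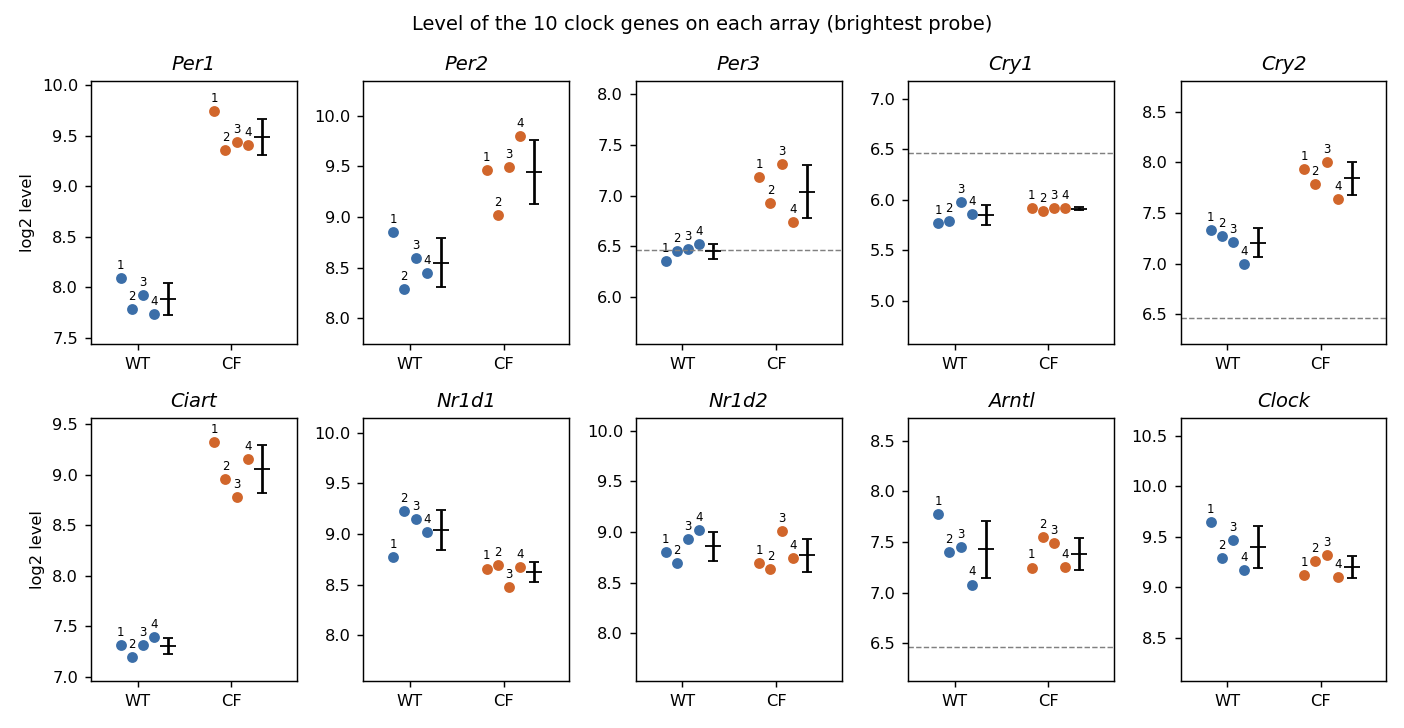
Log2 level of each clock gene (y axis, brightest probe) on the 4 WT and 4 CF arrays (x axis), numbered by replicate, with mean ± SD beside each group and the background level of 6.47 as a dashed line where it falls in range. All y axes span the same range. The CF points lie above the WT points for Per1, Per2, Per3, Cry2 and Ciart and below them for Nr1d1.

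Ciart, a repressor of the BMAL1 and CLOCK pair that is also called Chrono, had the largest difference of the group. Its level was 7.31, 7.20, 7.32 and 7.40 on WT arrays 1 to 4 and 9.32, 8.96, 8.78 and 9.15 on CF arrays 1 to 4. The lowest CF array stood 1.38 log2 units above the highest WT array. CF livers averaged 9.05 ± 0.24 (SD) against 7.31 ± 0.08 for WT, a 3.35-fold rise (1.75 ± 0.11 SE, adjusted p = 4.80e-05). A second Ciart probe also gave a difference of 1.75 (SE 0.10, adjusted p = 4.36e-05). By size of rise Ciart was the 12th of the 9146 genes.

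Per1, the period gene that also answers directly to hormone and feeding signals, stood close behind at rank 17. The WT arrays read 8.09, 7.78, 7.92 and 7.73, and the CF arrays 9.74, 9.36, 9.44 and 9.41. No CF array overlapped the WT range, and CF 1 was the highest. The CF mean of 9.49 ± 0.17 was 3.04-fold above the WT mean of 7.88 ± 0.16 (1.60 ± 0.11 SE, adjusted p = 5.11e-05). The dimmer of the 2 Per1 probes gave 1.26 ± 0.10 SE.

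Per2, whose protein forms the repressor complex with the CRY proteins, read 8.86, 8.29, 8.59 and 8.45 in WT and 9.47, 9.02, 9.49 and 9.80 in CF. The groups were separated by only 0.16 between CF 2 and WT 1. Per2 was 1.86-fold higher in CF (difference 0.90 ± 0.17 SE, adjusted p = 0.00649), and a second tested probe gave 0.85 ± 0.15 SE. The remaining probe of Per2 was under background on all 8 arrays and was not tested.

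Per3, the period gene least needed for rhythm in mice, was at background in WT. Its WT arrays read 6.35, 6.45, 6.47 and 6.52 around the background level of 6.47, with 2 of the 4 above it, while the CF arrays read 7.19, 6.93, 7.31 and 6.74. Every CF array was above background and above every WT array. The measured difference was 0.59 ± 0.12 SE (adjusted p = 0.00888). As the WT mean lay under background, the rise is a lower bound, at least 1.48-fold.

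Cry2, one of the pair of cryptochromes that bind and silence the activators, read 7.33, 7.27, 7.22 and 7.00 in WT and 7.94, 7.78, 8.01 and 7.64 in CF. The ranges did not overlap. It was 1.55-fold higher in CF (difference 0.64 ± 0.10 SE, adjusted p = 0.00316). Its partner Cry1 could not be judged, since the one Cry1 probe ran from 5.77 to 5.98 over the 8 arrays, all under background, and gives no level.

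Nr1d1 was lower in CF, against the direction of the 5 repressors that rose. This nuclear receptor (REV-ERBα) binds heme and represses Arntl. It read 8.77, 9.22, 9.15 and 9.02 in WT and 8.66, 8.70, 8.47 and 8.67 in CF. The CF arrays all lay below the WT arrays, by a gap of 0.08 between WT 1 and CF 2. Nr1d1 was 1.33-fold lower (difference -0.42 ± 0.10 SE, adjusted p = 0.0221). The call was lost when single arrays were left out, with adjusted p of 0.0552 without WT 2, 0.0653 without WT 3 and 0.0542 without CF 3. The second Nr1d1 probe gave -0.31 ± 0.11 SE and did not pass, and its groups overlapped. Nr1d2 (REV-ERBβ), its paralog, read 8.80, 8.70, 8.93 and 9.02 in WT and 8.69, 8.64, 9.01 and 8.74 in CF. The groups overlapped throughout, with a difference of -0.09 ± 0.10 SE (adjusted p = 0.576).

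The activators showed no difference that passed. Arntl, the partner whose loss alone stops the clock in mice, read 7.78, 7.40, 7.45 and 7.08 in WT and 7.25, 7.55, 7.49 and 7.25 in CF. The CF arrays lay inside the WT range. The difference was -0.04 ± 0.14 SE (adjusted p = 0.870), and its sign changed between the fits tried, from -0.16 to 0.07. Clock, a histone acetyltransferase and the DNA-binding partner of BMAL1, read 9.65, 9.29, 9.47 and 9.17 in WT and 9.12, 9.26, 9.32 and 9.11 in CF. These overlap too, at a difference of -0.19 ± 0.11 SE (adjusted p = 0.244). The other 2 Clock probes were under background on all 8 arrays. Within WT, both activators took the same order over the arrays, highest in WT 1, then WT 3, WT 2 and WT 4. Within CF, arrays 2 and 3 were above arrays 1 and 4 for both.

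Groups that do not overlap were found for 6 of the 9 tested clock genes. CF lay wholly above WT in 5 genes, against 13.9% of all tested genes, and wholly below in 1 gene, against 10.5%. Per3, 1 of the 5, entered the test through its CF arrays. The spread within a genotype was larger for clock genes than for most genes. The residual SD of the fit ran from 0.15 for Nr1d2 to 0.28 for Per2, with a median of 0.17 over the 9 and of 0.13 over all tested genes. Per2 and Arntl were the most variable, at percentiles 93.0 and 88.0 of residual SD.

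**Figure D2:**
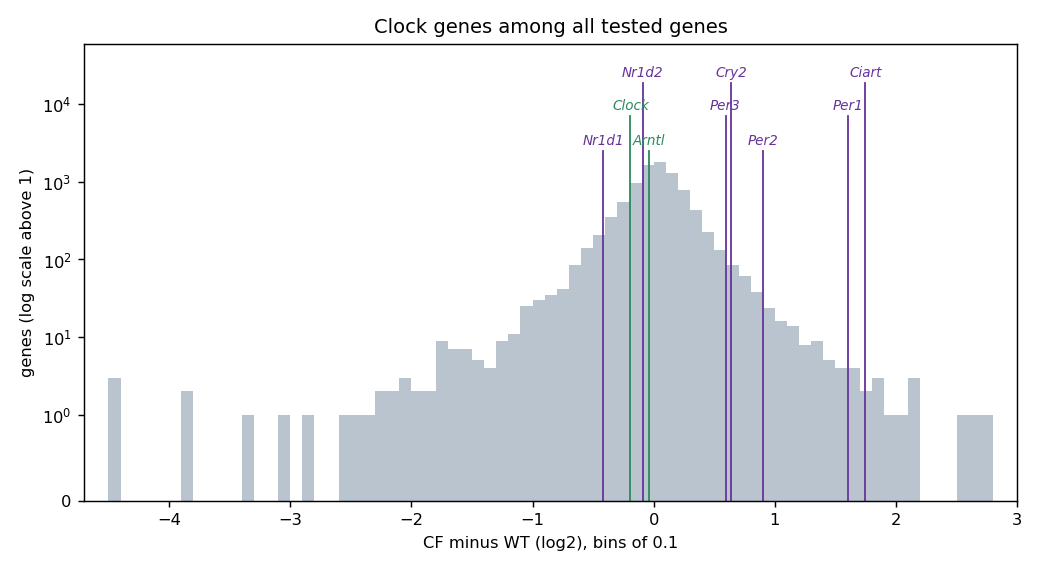
Number of genes (y axis, log scale above 1) by CF minus WT difference in log2 units (x axis, bins of 0.1) for the 9146 tested genes, with the 9 tested clock genes as vertical lines, repressors in purple and activators in green. Line heights only separate the names. Ciart and Per1 lie in the thin right tail, while Arntl, Nr1d2 and Clock lie in the central peak.

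In the mouse liver the clock genes peak in a known sequence over the day. Nr1d1 comes first, in the first part of the light phase, followed by Ciart, Per3 and Nr1d2, then Per1, then Per2 with Cry2, then Cry1 in the dark phase, and Clock and Arntl last, around the return of light. The peaks of neighbours lie close together and some can change places between studies. Set in that order, the differences were -0.42 for Nr1d1, 1.75 for Ciart, 0.59 for Per3 and -0.09 for Nr1d2. Next came 1.60 for Per1, 0.90 for Per2 and 0.64 for Cry2. Clock and Arntl, at the end of the order, had -0.19 and -0.04. The first gene of the order, Nr1d1, was thus lower in CF, a call that held in 13 of 19 alternative settings. Genes from Ciart to Cry2 other than Nr1d2 were higher, and the last genes did not pass. The order was not tested. With no hour in the labels, a shift in time, a change in amplitude and different hours of killing for the genotypes cannot be told apart. A direct answer of Per1 to hormone or feeding signals was not tested either.

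**Figure D3:**
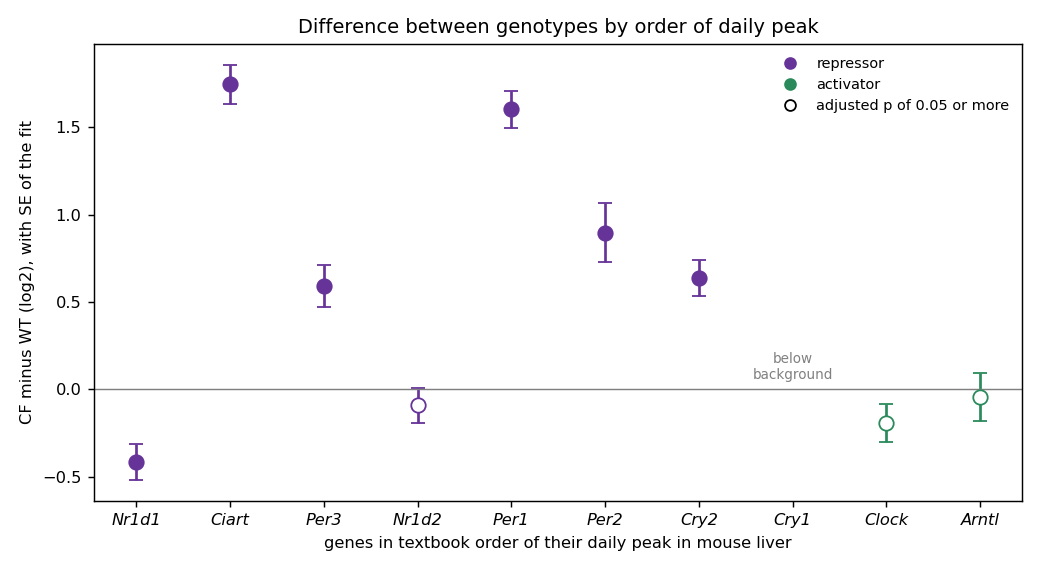
CF minus WT difference in log2 units (y axis) with the SE of the fit as bars, for the clock genes in the textbook order of their daily peak (x axis). Purple marks repressors and green activators, filled points passed the test, and Cry1 was below background. The highest points are Ciart at 1.75 and Per1 at 1.60, and the lowest is Nr1d1 at -0.42.

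Whether pairs of clock genes changed unequally was examined on 8 pairs, through the log ratio of the pair within each array and a two-sided exact permutation test over the 70 assignments of 4 arrays. The smallest p this design allows is 0.0286. The pairs were chosen with the values known. Each gap used the brightest probe alone, and the dimmer Per1 probe differed by 1.26 rather than 1.60. Gaps of the dimmer probes were not computed. The difference of Per1 exceeded that of Per2 by 0.70 (SE 0.18) and that of Per3 by 1.01 (SE 0.16), each with exact permutation p = 0.0286 and adjusted p = 0.0571 over the 8 pairs. The same exact p and adjusted p were found for Ciart against Nr1d1, a gap of 2.16 (SE 0.15), and for Per1 against Nr1d1, a gap of 2.02 (SE 0.19). For these with Nr1d1 the exact p was fixed in advance, because CF lay wholly above WT for Ciart and Per1 and wholly below it for Nr1d1. For Nr1d1 against Nr1d2 the gap was -0.32 (SE 0.19, exact permutation p = 0.143, adjusted 0.190). Ciart against Per1 gave 0.14 (SE 0.12, exact permutation p = 0.286, adjusted 0.327). Arntl against Clock gave 0.15 (SE 0.06, exact permutation p = 0.0571, adjusted 0.0914). Per2 against Per3 gave 0.31 (SE 0.27, exact permutation p = 0.343, adjusted 0.343). As Per3 was at background in WT, its rise is a lower bound. The gaps of Per1 and of Per2 over Per3 may therefore be smaller than measured. No pair passed after adjustment, and 4 reached the smallest unadjusted p. With that smallest p, no pair could pass unless more than 4 of the 8 reached it. Not passing therefore does not show equal change.

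The start regions of the genes are shown because E-boxes, D-boxes and the REV-ERB/ROR element are the letters through which the loop is known to act on itself. RefSeq windows (GRCm38.p6) of 300 bases, from 250 before to 50 after each start site, were matched by symbol for 9 of the 10 genes, in 13 windows. Both strands were searched for the E-box CACGTG, the E-prime box CACGTT, the D-boxes TTATGTAA and TTACGTAA, and the REV-ERB/ROR element by its consensus. These motifs do not overlap each other in the windows shown, where capitals mark each match, reading 5′ to 3′ on the strand of the gene. The windows printed are those of Ciart and Per1, which rose most, of Per3 for its repeated D-box, and of Nr1d1 and Arntl.
Ciart, chr3:95882179-95882478, minus strand: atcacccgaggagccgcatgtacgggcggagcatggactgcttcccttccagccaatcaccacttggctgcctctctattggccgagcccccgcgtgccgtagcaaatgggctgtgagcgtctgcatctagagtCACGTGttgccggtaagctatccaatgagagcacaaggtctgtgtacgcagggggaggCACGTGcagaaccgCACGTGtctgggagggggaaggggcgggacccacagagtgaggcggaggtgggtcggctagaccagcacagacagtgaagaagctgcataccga
Per1, chr11:69098699-69098998, plus strand: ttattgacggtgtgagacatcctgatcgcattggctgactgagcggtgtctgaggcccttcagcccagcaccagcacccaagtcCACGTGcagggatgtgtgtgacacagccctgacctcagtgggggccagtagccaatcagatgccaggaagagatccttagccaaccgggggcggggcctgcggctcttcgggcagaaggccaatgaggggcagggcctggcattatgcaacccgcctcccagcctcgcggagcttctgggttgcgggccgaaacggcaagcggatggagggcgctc
Per3, chr4:151044616-151044915, minus strand: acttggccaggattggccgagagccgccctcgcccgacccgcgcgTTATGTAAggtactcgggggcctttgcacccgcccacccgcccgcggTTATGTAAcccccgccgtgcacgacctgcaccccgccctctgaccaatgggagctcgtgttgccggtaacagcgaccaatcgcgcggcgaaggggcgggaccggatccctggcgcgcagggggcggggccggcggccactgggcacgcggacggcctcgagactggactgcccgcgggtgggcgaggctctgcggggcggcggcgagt
Nr1d1, chr11:98775328-98775627, minus strand: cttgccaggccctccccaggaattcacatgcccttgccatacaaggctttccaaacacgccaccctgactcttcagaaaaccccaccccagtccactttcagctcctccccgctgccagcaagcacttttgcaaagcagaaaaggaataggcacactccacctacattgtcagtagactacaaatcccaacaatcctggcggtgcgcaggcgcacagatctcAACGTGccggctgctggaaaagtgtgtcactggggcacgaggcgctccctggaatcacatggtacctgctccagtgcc
Arntl, chr7:113207261-113207560, plus strand: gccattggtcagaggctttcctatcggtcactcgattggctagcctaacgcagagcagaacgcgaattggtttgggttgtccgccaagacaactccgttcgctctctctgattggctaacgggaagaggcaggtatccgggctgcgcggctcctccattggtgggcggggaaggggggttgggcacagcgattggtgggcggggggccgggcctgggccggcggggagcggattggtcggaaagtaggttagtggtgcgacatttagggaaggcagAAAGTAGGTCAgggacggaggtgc

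The Ciart window holds 3 E-boxes, at 116, 58 and 44 bases before the start site. At least 1 E-box is held by 3 of the 13 clock windows and by 7.15% of all 32851 windows. Of all windows 0.0883% hold 3 or more, or 29 windows. The Per1 window of the upstream start has 1 E-box at 166 bases before it. Per3 has 2 copies of the D-box TTATGTAA, at 205 and 158 bases before its start. Any D-box is held by 1.06% of all windows, and at least 2 by 0.0244%. The cut-offs of 3 E-boxes and 2 D-boxes are the counts in the Ciart and Per3 windows, so these shares test nothing. Nr1d1 shows an E-prime box on the opposite strand, read AACGTG, at 28 bases before its start, a motif in 4.68% of windows. Cry2 and Cry1 also hold one, at 166 and 79 bases before their starts, and Cry1 an E-box besides. The second of the 2 Arntl windows holds the only REV-ERB/ROR element found in the group, AAAGTAGGTCA, beginning 27 bases into the transcript. Of all windows, 0.384% hold one. No match was found in the windows of Clock and Nr1d2, in the downstream Per1 window or in the first Arntl window. Per2 had no window and was not searched. A match describes letters in this window and shows no binding.

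Among 34 partners and modifiers of the clock, the kinases, ligases, cofactors and receptors that act on its proteins, 28 were named on the array and 23 were tested. Of these 6 rose, 0 fell and 17 did not pass in limma, with a median difference of 0.05. Over all named genes 11.0% rose and 8.79% fell. At an unadjusted p under 0.05, 7 partners were higher and 1 lower, against 18.7% and 14.7% of all named genes. Usp2, a deubiquitinase of clock proteins that itself cycles, read 9.53, 9.43, 9.15 and 9.37 in WT and 10.85, 10.47, 10.90 and 11.43 in CF, which is 2.91-fold higher (difference 1.54 ± 0.18 SE, adjusted p = 0.000728). Nampt, the NAD salvage enzyme driven through E-boxes, rose from 8.11 ± 0.28 to 9.16 ± 0.12, 2.07-fold (adjusted p = 0.00101). The casein kinases that mark PER proteins for decay rose less, Csnk1d by 0.58 ± 0.10 SE and Csnk1e by 0.49 ± 0.10 SE. Sfpq, a splicing factor found in PER complexes, rose by 0.47 ± 0.08 SE. Ppargc1a, a coactivator that works with ROR receptors and in fasting, had 0.75 ± 0.22 SE (adjusted p = 0.0380). That last call was lost in 6 of 8 fits without a single library (all but those without CF 2 or CF 4), with adjusted p of 0.0533 or more. It was also lost with every array kept but no filter on dim probes. Without WT 3 and CF 1 together, 4 partners rose.

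Rora, the receptor that opposes REV-ERB at Arntl, differed by -0.11 ± 0.13 SE and did not pass. Npas2, which can stand in for Clock, was under background on all 8 arrays. Id2, an inhibitor of helix-loop-helix proteins, was at -0.69 ± 0.23 SE (adjusted p = 0.0640), with 1 partner lower, Id2, when WT 3 was left out.

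Of 22 output genes, those that carry the rhythm to the rest of the liver, 19 were named and 12 tested. Here 4 rose, 0 fell and 8 did not pass, and the median difference was 0.25. The shares of all named genes were again 11.0% higher and 8.79% lower. At an unadjusted p under 0.05, 5 outputs were higher and 0 lower, where 18.7% and 14.7% of all named genes were. Usp2 is on both lists. Tef, a bZIP factor that binds D-boxes, read 8.80, 8.86, 8.73 and 8.58 in WT and 9.22, 9.21, 9.56 and 9.89 in CF, without overlap (1.65-fold, difference 0.72 ± 0.15 SE, adjusted p = 0.00949). Noct (nocturnin), a phosphatase of NADPH with a strong daily rhythm, was 1.84-fold higher (0.88 ± 0.25 SE, adjusted p = 0.0376), although WT 3 at 9.05 lay inside the CF range. Coq10b, a mitochondrial coenzyme Q protein, had 0.54 ± 0.15 SE (adjusted p = 0.0309). The call of Noct was lost without CF 1, CF 4, WT 1, WT 2 or WT 4 (adjusted p up to 0.0911). That of Coq10b was lost without any single array other than WT 4 and CF 2 (up to 0.0732). With every array kept, Noct was also lost under array weights and with no filter on dim probes. It was lost too with a replicate block and with the trend and robust variance prior. The list had 2 risers, Tef and Usp2, without CF 4, without WT 1 and without WT 2.

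The D-box factor Dbp, a direct E-box target that peaks soon after Nr1d1, read 10.92, 11.18, 11.05 and 11.45 in WT and 11.66, 11.18, 11.18 and 11.79 in CF. The groups overlapped, and the difference of 0.31 ± 0.16 SE did not pass (adjusted p = 0.230). Nfil3, the repressor that competes at D-boxes, and Bhlhe40, which competes at E-boxes, both differed by -0.19 with overlapping groups. Hlf and Bhlhe41 were under background on all 8 arrays.

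**Figure D4:**
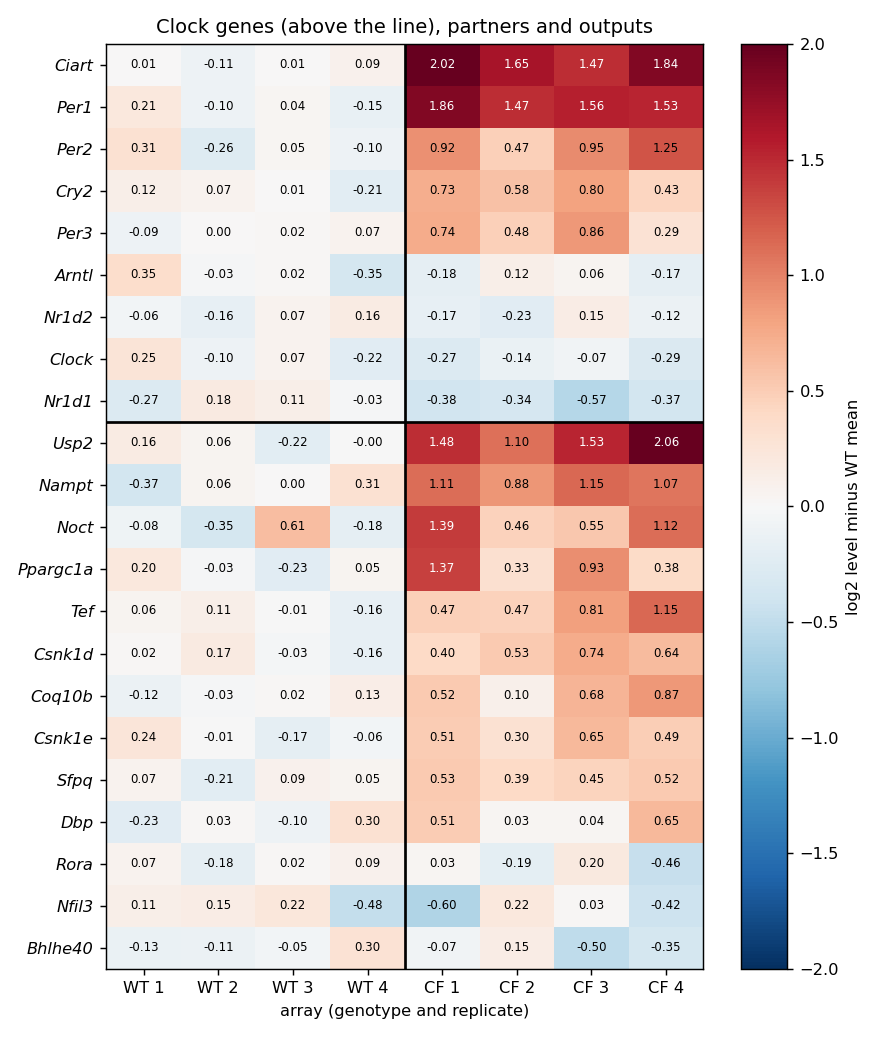
Log2 level minus the WT mean of the same gene (colour and printed value) for the tested clock genes above the line and for named partners and output genes below it (rows), on each array (columns, genotype and replicate). CF columns are red for Ciart, Per1, Per2, Cry2, Per3, Usp2, Nampt and Tef and near 0 for Arntl, Nr1d2 and Clock.

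The profiles nearest to 3 of the clock genes were sought by root mean square distance between log2 values over the 8 arrays, each gene centred on its own mean, among 8996 other named genes. Nearest to Ciart was Cirbp, a cold-induced RNA-binding protein, at a distance of 0.155. Cirbp averaged 9.25 for CF against 7.62 for WT (1.63 ± 0.07 SE, adjusted p = 2.33e-05). The second was Per1 at 0.167, followed by Arrdc4, an arrestin-domain protein (0.185), Acat1, a mitochondrial thiolase (0.195), and Nrg4, an EGF-family ligand (0.223). Nearest to Nr1d1 were Abcb6, Abcc6, Gbp7, Gabarapl1 and Lima1, at 0.0637 to 0.0795, and nearest to Arntl were Grb7, Taf15, Paip2b, Zbp1 and Klhdc8b, at 0.0797 to 0.0972. All 5 genes nearest to Ciart differed between genotypes by 1.41 or more. That follows from how they were sought, since the genotype difference makes up most of the Ciart profile. With each genotype centred on its own mean, 0 of the 5 genes nearest to Ciart and to Nr1d1 remained, and 1 of those nearest to Arntl (Grb7), and Clock had rank 4 of 8996 for Arntl, at 0.0776.

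Of 8 hepatocyte markers all 8 were tested and 0 changed in limma (1 at an unadjusted p under 0.05), their mean level running from 11.35 to 11.61 in WT and 11.48 to 11.63 in CF. Ttr, Apoa1 and Cyp2e1 each averaged 14.4 in CF, near the largest value in the table (14.66). Tat exceeded background on only 4 arrays. The list is thus a weak measure of hepatocyte content. The exocrine pancreas list had 6 of 7 tested, 0 called and 0 at an unadjusted p under 0.05. It ran from 7.10 to 12.40 in WT and 7.27 to 11.83 in CF, highest in WT 3 and CF 1. On the second principal component (21.2% of variance) WT 3 lay at -20.58 and CF 1 at -20.76. At its other end CF 4 lay at 17.95. Without WT 3 and CF 1, Ciart differed by 1.66, Per1 by 1.53, Per2 by 0.91 and Cry2 by 0.61, all still called. In that fit Per3 had 0.55 (adjusted p = 0.0613) and Nr1d1 -0.39 (adjusted p = 0.112), and neither passed. Of the 4 tested endothelial markers 1 rose in limma (Lyve1, by 1.35), and 2 were higher at an unadjusted p under 0.05. Stab2, Pecam1 and Cdh5 differed by 0.32, 0.22 and 0.11 and did not pass. The mean level of the tested endothelial markers was 8.55 to 8.69 in CF and 8.06 to 8.18 in WT, with Kdr under background. Single markers moved in 3 other lists, Lgals4 of intestine (0.94) with Fabp2 and Vil1 under background, Marco of macrophages (1.08, 1 of 3 tested) and Lrat (-0.54) and Dcn (0.32) of stellate cells (2 of 5). Mean levels in WT and CF overlapped for the macrophage and stellate lists. No cholangiocyte (3 tested), lymphocyte (4 tested) or red cell marker (2 tested) was called, or reached an unadjusted p under 0.05. The part of these cell types in the clock gene differences was not tested. The Cftr probe was under background on all 8 arrays, from 5.89 to 6.14, and does not check the genotype labels.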

How the data were processed

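Total RNA from 8 whole livers, 4 CF and 4 WT, was read on single-colour Illumina bead arrays after cRNA amplification. GenomeStudio is the software named, without a version, per the submitters' processing notes. The values are log2 values deposited by the authors, 25697 probes with 0 missing. Once sorted, the 8 columns differed by at most 0.000351, so the table had been quantile-normalized before it was deposited, which hides any shift common to most transcripts. The background correction and any variance-stabilizing step are not given in the sources used here, so differences of dim probes are less certain. The scanner table was not used, because its 8 signal columns (32 columns in all) are named by chip position and no label ties a position to a sample.

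Background was set at the mode (6.18) plus the one-sided 95% normal quantile times the spread below the mode (0.173), or 6.47. Tests covered probes exceeding this level on 4 or more arrays, by limma 3.58.1 (lmFit, then eBayes) under R 4.3.3, with genotype alone in the model and Benjamini-Hochberg adjustment. The test was tried on simulated data with known changes. Probes were named from the platform annotation, where 23978 had 1 symbol, and matching by gene identifier altered 0 of them. Members, lists, pairs and alternatives were chosen with earlier results of these data known. The named genes are all members, up to 6 called genes of each list in order of adjusted p, fixed partners and outputs, the 5 nearest profiles and Cftr. Id2 and the cell type markers were named after their values were seen. Alternatives changed the filter, the variance prior, array weights, normalization, a floor at background, the threshold and the probe summary, added a replicate block, or left arrays out. The labels do not say whether equal replicate numbers pair the animals. The deviations of the 4 pairs correlated at -0.327, 0.062, -0.288 and 0.0882, which is too few values to decide it. Precision is limited by the number of arrays, which have no read depth.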

Additional observations from a re-analysis of the deposited data

How the results depend on the processing

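Of the 5 rises, Ciart, Per1, Per2 and Cry2 passed under all 19 alternatives, with differences of 1.66 to 1.84, 1.43 to 1.67, 0.78 to 1.04 and 0.57 to 0.70. Per3 passed in 17 of 18 and Nr1d1 in 13 of 19. Per3 was not tested when probes had to be above background on all arrays, which left 4 clock rises (Ciart, Per1, Per2 and Cry2) and 1 fall. Arntl, Clock and Nr1d2 passed in none of 19. With the replicate block the clock genes kept 5 rises and had 0 falls, as Nr1d1 had adjusted p = 0.0557, and 750 probes were higher and 690 lower over the whole array, against 1337 and 1137 without it. Without WT 3 and CF 1 the probe counts were 531 higher and 529 lower, with 4 clock genes higher and 0 lower. At adjusted p under 0.01 they were 518 and 474, the clock falls 0 and the output risers 2. At a threshold of 0.10, 1 partner was lower. Leaving out single arrays gave 853 to 1158 probes higher and 759 to 952 lower, the lowest counts without WT 3. It gave 5 clock rises each time and 0 to 1 falls, 5 to 6 partner rises and 0 to 1 falls, and 2 to 4 output rises with 0 falls. The alternatives for the partner and output lists were added after seeing the data. Where fewer arrays or a block lowered a count, the cause was not tested beyond the loss of samples. Signal over background limits Per3 in WT, Cry1, Npas2, Hlf and Bhlhe41, so a change in these may be larger than measured or unseen.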
